A study of Mus musculus with 19 samples.

Results

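Urogenital sinus mesenchyme (UGM) is the connective tissue that surrounds the epithelium of the urogenital sinus, the embryonic structure from which the prostate grows in males. It made up 5 of the 19 samples analysed here and was set against the other 3 tissues of the study, which were urogenital sinus epithelium (UGE, 6 samples), epidermis (4 samples) and dermis (4 samples). All samples came from C57BL/6 mouse embryos of embryonic day 16, with no treatment or altered allele named, and each was a pool of tissue from several embryos whose sex is not given. UGE and UGM were parted after trypsin digestion and the layers of back skin after overnight dispase, so tissue site and separation method cannot be told apart. Skin and urogenital sinus came from embryos that the study describes as the same, but which embryos entered which pool is not given, so samples of different tissues may share animals and p-values measure the spread between these samples only. RNA was read on MOE430 2.0 arrays, and every level below is a log2 intensity of 1 probe set.

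In the male embryo the UGM carries androgen receptors and sends secreted signals that direct the epithelium to bud, and it later gives rise to the smooth muscle and fibroblasts of the prostate. The tissue around the sinus is also the place where autonomic neurons of the pelvic ganglia settle and send axons, after their precursors have migrated from the neural crest. A dissected UGM therefore can hold fibroblasts, smooth muscle precursors, vessels, neurons and glia side by side. In such bulk samples a higher share of cells of a type and more RNA per cell of that type cannot be told apart.

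The 5 UGM samples had pairwise correlations of 0.980 to 0.997 over all probe sets. UGM replicate 2 held more epithelial transcript than its group, since the median of the epithelial adhesion and keratin genes was 7.71 there and 6.49 to 6.86 in the other UGM samples. By the median over 36 mesenchymal matrix genes UGM (10.84 to 11.23) stood beside dermis, and by the epithelial genes it was the lowest tissue, as its label has it. UGE replicates 2 and 3 held mesenchymal transcripts, with a matrix median of 8.30 and 8.22 against 6.06 to 7.20 in the other UGE samples, and replicate 1 did so for some genes. The dermis samples held keratin transcripts, with a median of 7.96 to 9.51 for the same epithelial genes against 10.63 to 11.26 in epidermis. The spiked BioB control read 7.47 to 8.23 in UGM, 8.21 to 9.29 in UGE, 8.88 to 9.30 in epidermis and 8.71 to 8.87 in dermis. Its part in the results was not tested.

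A gene was called higher in UGM when its UGM mean was more than 2-fold above the highest of the 3 other tissue means and the largest of the 3 pairwise p-values, adjusted over all 41549 probe sets, was under 0.01 (limma). Each adjusted p below is of that kind unless it is called pairwise, which is the p of the named pair of tissues, and each error after ± is a standard error. By this rule UGM was higher than each other tissue for 647 of 17360 genes (3.73%) and lower than each for 367 (2.11%). Over probe sets the counts were 1230 (2.96%) and 554 (1.33%). Against the mean of the 3 other tissues 1668 genes were higher (9.61%) and 1074 lower (6.19%), or 3011 (7.25%) and 1905 (4.58%) probe sets. Tissue by tissue, 1776 genes were higher than in UGE (10.2%) and 1176 lower (6.77%), 2530 higher than in epidermis (14.6%) and 1541 lower (8.88%), and 1176 higher than in dermis (6.77%) and 1216 lower (7%). Dermis, the other mesenchyme, was the next highest tissue for 343 of the 647 genes, UGE for 235 and epidermis for 69. The median difference over the next highest tissue was 1.81 on the log2 scale, 114 genes passed 8-fold and 43 passed 16-fold. All 5 UGM samples lay above all 14 other samples for 632 of the 647, beside 1323 of all genes (7.62%) that showed this order. For 279 of the 647 the means of all 3 other tissues lay under the median array level of 6.29. Detection calls were not used, so a fold against such a tissue rests on a level not shown to exceed background. Setting UGM against UGE and epidermis without dermis raised the probe set counts to 2478 higher and 1164 lower, under a rule that is looser because fewer tissues must differ. Without UGE replicates 2 and 3, a choice made after seeing the data, the counts were 1271 and 583.

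**Figure D1:**
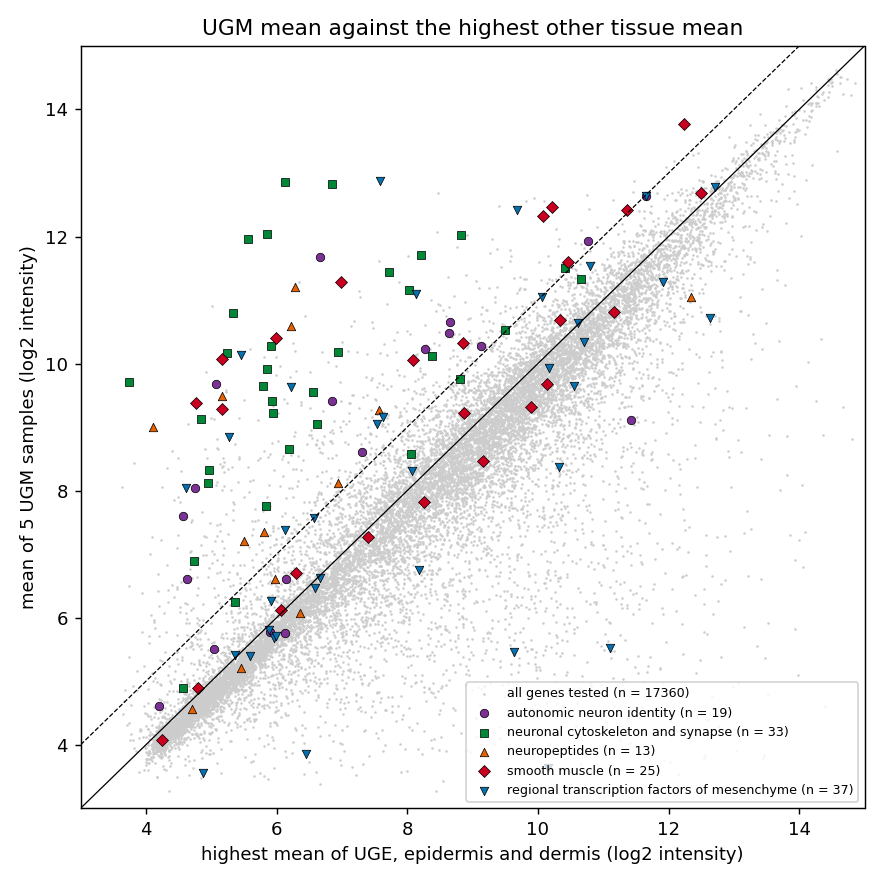
Mean log2 intensity of the 5 UGM samples (y axis) against the highest mean of UGE, epidermis and dermis (x axis) for 17360 genes in grey, with 5 gene lists in colour, the solid line for equal levels and the dashed line for a 2-fold difference. Genes of the neuronal cytoskeleton and synapse lie farthest above the dashed line, with Nefl at the largest difference of 6.72, while the regional transcription factors lie on both sides of the solid line.

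Genes were ranked among those called higher whose 5 UGM samples all lay above every other sample. The 20 genes with the largest difference between UGM and the next highest tissue ran from Nefl (6.72 ± 0.32) to Tnr (4.61 ± 0.13), and 11 of them belonged to neuronal gene lists. Besides neuronal genes they held Tcf21 and Eya1, which encode regulators of mesenchymal development, and Cnn1 and Pcp4, counted here with smooth muscle. Of the first 60 genes, 19 were in the neuronal lists, 5 in the smooth muscle list and 2 in the list of regional transcription factors. The neuronal lists, of cytoskeleton and synapse, autonomic identity, neuropeptides and ion channels, held 33, 19, 13 and 19 of the 17360 genes. The smooth muscle list held 25 and the list of regional factors 37. All lists were chosen with earlier results of these data known, so list counts here and below are a description and not a test. Of the 647 genes, 554 were in none of the lists used here.

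**Figure D2:**
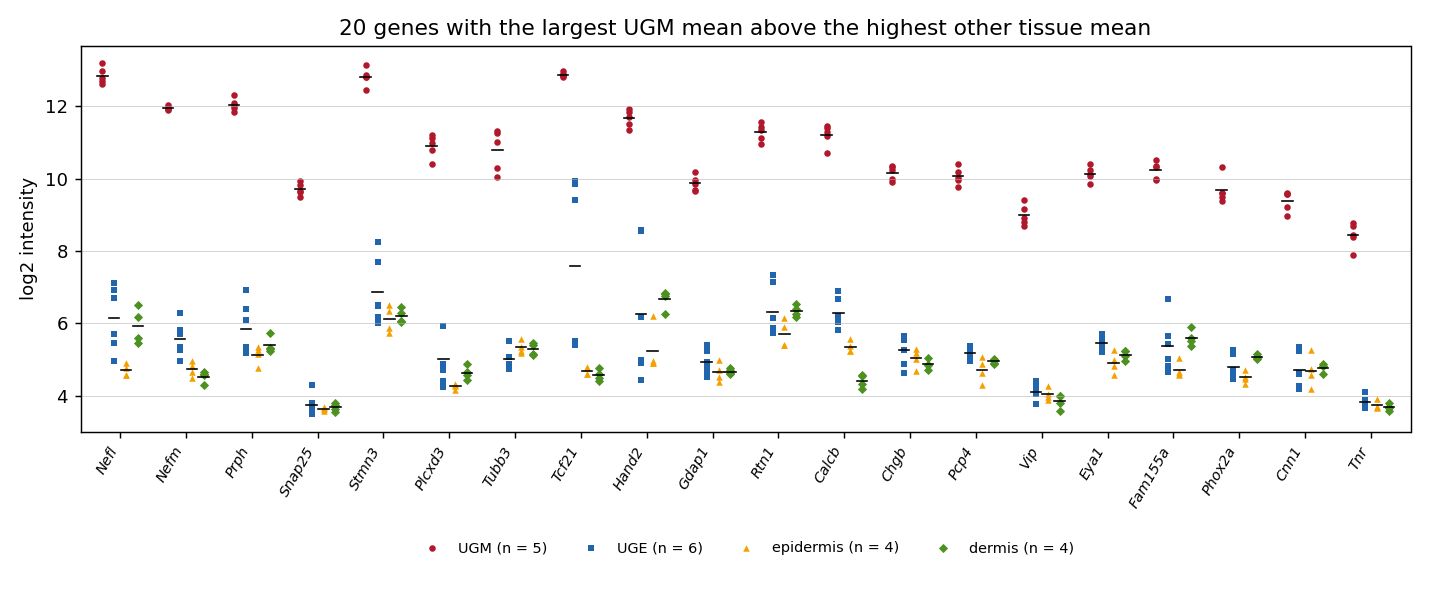
Log2 intensity of the 20 genes with the largest UGM difference over the next highest tissue, with 1 point per sample and a bar for each tissue mean (5 UGM, 6 UGE, 4 epidermis and 4 dermis samples). UGM samples stand above all others for every gene shown, which was a condition for choosing these genes. For Tcf21, 3 UGE samples stand apart from the other 3 (9.40 to 9.92 against at most 5.50).

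The list with the highest median difference was the neuronal cytoskeleton and synapse, of which 28 of 33 measured genes were higher in UGM than in each other tissue, beside 3.73% of all genes, and none was lower. The median difference over the next highest tissue was 3.24, against -0.26 over all genes tested. Nefl, the light subunit of the neurofilaments that fill axons, stood at 13.19, 12.97, 12.69, 12.63 and 12.79 in the 5 UGM samples. In UGE it ran from 4.94 to 7.10 with a median of 6.20, in epidermis from 4.56 to 4.89 and in dermis from 5.47 to 6.50. Every UGM sample was far above every other sample, and the mean lay 105-fold over UGE, a log2 difference of 6.72 ± 0.32 (limma, adjusted p = 3.62e-11). The medium neurofilament subunit Nefm differed by 6.40 ± 0.17 and Prph, the intermediate filament peripherin of peripheral neurons, by 6.20 ± 0.25. Nefh, the heavy subunit that enters neurofilaments late in axon maturation, differed less, by 2.15 ± 0.13. Neuronal tubulin Tubb3 differed by 5.46 ± 0.23 and the microtubule regulator Stmn3 by 5.97 ± 0.32.

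Genes of transmitter release formed part of the same group. Snap25, a membrane protein of the vesicle fusion machinery, stood at 9.93, 9.83, 9.66, 9.50 and 9.62 in UGM. In the other tissues it did not exceed 4.28, so the groups lay far apart with little spread (5.97 ± 0.12, adjusted p = 4.95e-16). The vesicle proteins Syp (3.28 ± 0.14), Syt1 (3.24 ± 0.12) and Cplx1 (3.13 ± 0.16) and the granule proteins Chgb (4.92 ± 0.17) and Chga (3.17 ± 0.21) were higher as well. Of the RNA-binding proteins that mark young neurons, Elavl4 differed by 4.37 ± 0.14 and Elavl2 by 3.72 ± 0.16. Dcx, a microtubule protein of migrating neurons, differed by 3.48 ± 0.22 with dermis as the next tissue.

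Some genes of the cytoskeleton and synapse list lay near the threshold or under it. Gap43, a growth cone protein, was higher by 1.08 ± 0.27 over dermis (adjusted p = 0.00993), and lost its call without any of 14 single samples (1.01 without dermis replicate 1). Uchl1 differed by 1.03 ± 0.20 over UGE and fell below 2-fold without any of 6 samples, to 0.91 without UGM replicate 2. Just outside stood the vesicle protein Vamp2 (0.96 ± 0.10), while Map1b (0.68 ± 0.23, adjusted p = 0.0692) and Map2 (0.52 ± 0.29, adjusted p = 0.349) did not pass the test. Scg2 (0.88) and Sv2c (0.33) were not called either.

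Syn1 encodes synapsin I, a phosphoprotein that tethers synaptic vesicles. It stood at 7.89, 8.07, 7.25, 7.58 and 7.96 in UGM and at 5.32 to 6.07 in UGE, with epidermis and dermis in the same low range (5.69 to 5.97 and 5.62 to 5.98). All UGM samples were above all others (1.92 ± 0.16, adjusted p = 5.09e-08). Its promoter is shown because it held the only match, among the neuronal-list genes with a promoter in the tables, to TTCAGCACC, part of the element bound by the neuronal gene repressor REST. In RefSeq promoters of build GRCm38.p6, 250 bases before each gene's start were searched on both strands, and 94 of 27025 genes (0.348%) held this run, as did 1 of the 60 measured genes of the neuronal lists that had a promoter there (1.67%). The window below is chrX:20921049-20921168 on the minus strand, printed 5′ to 3′, and the capitals mark the match, 232 to 224 bases before the start. A match of letters is a description and not a shown binding site.
Syn1: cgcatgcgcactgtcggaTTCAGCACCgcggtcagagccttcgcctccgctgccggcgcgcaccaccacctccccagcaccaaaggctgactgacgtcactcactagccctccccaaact

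Of 19 measured genes of autonomic neuron identity 12 were higher in UGM than in each other tissue (3.73% of all genes) and none was lower. The list median per sample was 8.69 to 9.54 in UGM and did not exceed 6.19 in any other sample. Phox2a, a homeobox factor required for noradrenergic neurons, stood at 9.60, 9.50, 9.61, 9.38 and 10.33 in UGM and ran from 4.46 to 5.26 with a median of 4.66 in UGE. Epidermis and dermis stood at 4.33 to 4.71 and 5.02 to 5.15, so no sample outside UGM came near, and UGM replicate 5 was the highest (4.61 ± 0.18 over dermis, adjusted p = 8.24e-13). Hand2, a bHLH factor of sympathetic neurons that is also made by mesenchyme, stood at 11.94, 11.69, 11.53, 11.35 and 11.85 in UGM. In UGE replicates 2 and 3 it stood at 8.59 and 8.55 and in the other UGE samples at 4.43 to 6.17, with a wide error of its difference over dermis (5.01 ± 0.69, adjusted p = 2.79e-05). Insm1, a zinc finger factor of neuroendocrine precursors, was higher by 3.04 ± 0.17.

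Genes of both transmitter types were among the 12. Slc18a3, the vesicular acetylcholine transporter, stood at 8.20, 8.30, 7.57, 7.45 and 8.64 in UGM and at most at 4.95 elsewhere. Every UGM sample was higher than every other sample (3.28 ± 0.19, adjusted p = 1.89e-10). Chat, which makes acetylcholine, read 5.13 to 5.96 in UGM against 4.90 to 5.16 in epidermis and was not called (0.47 ± 0.14, adjusted p = 0.0262). On the noradrenergic side Dbh, which makes noradrenaline from dopamine, differed by 1.84 ± 0.13. Th, the rate-limiting enzyme of catecholamine synthesis, differed by 1.29 ± 0.24 over UGE, and Ddc, the next enzyme, by 1.15 ± 0.15 over dermis. The vesicular monoamine transporter Slc18a2 showed no gain over dermis (-0.12 ± 0.22, pairwise adjusted p = 0.695), although UGM (5.29 to 6.38) lay above UGE (3.75 to 4.02).

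The receptors through which autonomic neurons sense target-derived factors were called too. Ret, the signalling receptor for GDNF family ligands, was at 10.97, 10.43, 10.58, 10.58 and 10.68 in UGM and ran from 8.26 to 9.09 with a median of 8.63 in UGE. It was not above 5.13 in the skin, so the sinus tissues stood apart from skin and UGM stood above both (1.99 ± 0.16 over UGE, adjusted p = 3.35e-08). Its co-receptor Gfra2 differed by 1.96 ± 0.32, a call lost when it was read from its probe set with the largest spread (2.15), and the neurotrophin-3 receptor Ntrk3 by 2.55 ± 0.41. The ligands showed no such pattern. Gdnf was no higher than in dermis (-0.43 ± 0.18, pairwise adjusted p = 0.0717) and Artn no higher than in UGE (-0.07 ± 0.14, pairwise adjusted p = 0.731). Chrna3, a subunit of the ganglionic acetylcholine receptor, was higher by 1.98 ± 0.18. Gata3, used by sympathetic neurons and by many epithelia, was lower than in UGE (-2.32 ± 0.21). Isl1, a LIM homeobox factor of sensory and sympathetic neurons, was just under 2-fold above UGE (0.99 ± 0.21, adjusted p = 0.00304) and far above epidermis and dermis, and it passed 2-fold without any of 5 samples (1.09 without UGE replicate 1).

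Of 13 measured neuropeptide genes 8 were higher in UGM (3.73% of all genes) and none was lower. Vip, a vasodilator peptide of parasympathetic pelvic neurons, stood at 9.42, 8.68, 8.92, 8.81 and 9.17 in UGM and at most at 4.41 in any other sample (4.90 ± 0.14, adjusted p = 2.97e-14). Calcb, which encodes a form of the sensory peptide CGRP, stood at 11.29, 10.71, 11.42, 11.18 and 11.45 in UGM and ran from 5.80 to 6.88 with a median of 6.14 in UGE. Neither gene overlapped between UGM and the other tissues, and Calcb differed by 4.93 ± 0.17 (adjusted p = 2.44e-13). Sst, somatostatin, differed by 4.37 ± 0.18 and Cartpt, a peptide of autonomic and enteric neurons, by 4.33 ± 0.23. Tac1, the precursor of substance P, spread more in UGM (8.38, 9.25, 9.53, 8.92 and 10.27) and reached 8.01 in dermis, a difference of 1.70 ± 0.29 (adjusted p = 0.000347). Npy, a co-transmitter of sympathetic neurons, differed by 1.19 ± 0.24 over epidermis. Gal read 5.96 to 6.24 in UGM and 6.31 to 6.42 in dermis (-0.29 ± 0.13, pairwise adjusted p = 0.0864). Penk, the enkephalin precursor, was below dermis (-1.31 ± 0.28) but above UGE by 3.49 ± 0.26.

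Of 19 measured ion channel genes of neurons 5 were called higher, beside 3.73% of all genes, and none was lower. Read from the probe set with the largest spread, 11 were called. That choice favours probe sets that differ between samples, and its share over all genes was not counted, so nothing is read from the 11. The clearest was Scn3b, a sodium channel subunit, at 11.30, 10.68, 11.04, 10.92 and 11.30 in UGM and 7.20 to 7.35 in dermis, the next tissue (3.77 ± 0.26, adjusted p = 2.65e-09). Kcnd2 (2.96 ± 0.28) and Kcnq3 (2.52 ± 0.11), potassium channels that set firing, and the sodium channel Scn3a (2.37 ± 0.15) were higher too. Scn9a, a sodium channel of peripheral neurons, read 5.32 to 5.78 in its brighter probe set (0.90 ± 0.11) and differed by 2.99 in its more variable one.

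Of 15 measured genes of Schwann cells, the glia of peripheral axons, and of neural crest, 1 was higher in UGM than in each other tissue, beside 3.73% of all genes, so nothing is read from that count. That gene was Fabp7, a fatty acid binding protein of immature glia, at 11.10, 11.09, 10.83, 10.76 and 10.92 in UGM and 8.14, 8.73, 8.50 and 8.52 in dermis (2.47 ± 0.23, adjusted p = 2.24e-07). Sox10, the factor that defines crest-derived glia, stood at 9.43 to 9.89 in UGM and at 9.29 to 9.55 in dermis. These ranges overlapped, and its difference over dermis was 0.21 ± 0.19 (adjusted p = 0.705). Ngfr (0.24 ± 0.18, adjusted p = 0.561) and S100b (0.03 ± 0.11, adjusted p = 0.998) did not differ beyond error from dermis either. Against UGE the same genes were higher, Sox10 by 2.26 ± 0.17 and Ngfr by 2.93 ± 0.16. Other members of the list lay well under the highest other tissue, Sox2 by -5.26, Erbb3 by -2.67, Mbp by -2.27, Pou3f1 by -2.24 and Tfap2b by -1.76. Against the mean of the 3 other tissues 6 of the 15 genes were higher and 4 lower, beside 9.61% and 6.19% of all genes. The list median was 8.23 to 8.68 in UGM and 8.38 to 8.52 in dermis, whereas the neuronal cytoskeleton list stood at 9.68 to 10.08 and 5.72 to 5.83 in the same samples.

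Of 25 measured smooth muscle genes, 10 were higher in UGM than in each other tissue (3.73% of all genes) and none was lower. Smooth muscle contracts through a thick filament of its own myosin heavy chain and thin filaments of smooth muscle actins, and its genes are switched on by the coactivator myocardin with the serum response factor. Myocd, which encodes myocardin, stood at 9.68, 9.48, 8.89, 9.30 and 9.09 in UGM and ran from 4.76 to 5.94 with a median of 4.86 in UGE. The skin samples did not exceed 5.35, and the difference was 4.13 ± 0.20 (adjusted p = 8.33e-11). Myh11, the smooth muscle myosin heavy chain, stood at 10.56, 10.50, 10.38, 10.34 and 10.21 in UGM and 5.90, 6.02, 5.74 and 6.31 in dermis. UGM samples lay close together and on average 21.2-fold over dermis (4.41 ± 0.13, adjusted p = 1.5e-14). Cnn1, calponin, which binds the thin filament, differed by 4.61 ± 0.24 and Actg2, the actin of visceral smooth muscle, by 4.30 ± 0.42. Pcp4, a calmodulin-binding peptide also made by neurons, differed by 4.91 ± 0.13.

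A further set of contractile genes was also present in dermis at a lower level. Myl9, the regulatory myosin light chain, stood at 11.97, 12.41, 12.72, 12.47 and 12.76 in UGM, at 10.07, 10.42, 10.04 and 10.32 in dermis and at most at 8.70 in UGE. The dermis samples were between the other tissues and UGM, without overlap (2.25 ± 0.39, adjusted p = 0.000384). Mylk, the kinase of that chain, differed from dermis by 2.25 ± 0.42, Tagln, an actin-binding protein, by 1.96 ± 0.20, and Pgm5, a protein of muscle attachment sites, by 1.47 ± 0.30. Tpm1, tropomyosin, exceeded UGE by 1.14 ± 0.10, but its more variable probe set by only 0.53. Acta2, smooth muscle alpha actin, stood at 13.69, 13.88, 13.73, 13.79 and 13.75 in UGM and 12.28, 12.25, 11.95 and 12.45 in dermis. All UGM samples were higher, by 1.53 ± 0.58, but UGE was widely spread (7.19 to 10.48) and the gene was not called (adjusted p = 0.11). Without UGE replicates 2 and 3 it was called at the same difference. Des, desmin, which skeletal muscle shares, was no higher than in dermis (-0.44 ± 0.18, pairwise adjusted p = 0.0675), and Smtn was below it (-0.69 ± 0.21).

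The promoter of Myl9 is shown for its match to the CArG box, the motif of the serum response factor. It held the only exact match to CCWWWWWWGG (W is A or T) among 20 measured smooth muscle genes with a RefSeq promoter (5.0%). Of all 27025 genes, 439 (1.62%) held the motif in the 250 bases before their start, on either strand. The window is chr2:156775253-156775372 on the plus strand of GRCm38.p6, printed 5′ to 3′, and the capitals mark the match, 161 to 152 bases before the start. Sites further from the start and sites with a mismatch were not searched, and a match of letters is not a shown binding site.
Myl9: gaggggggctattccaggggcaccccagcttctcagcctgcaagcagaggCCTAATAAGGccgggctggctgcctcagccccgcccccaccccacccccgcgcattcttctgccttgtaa

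Transcription factors that give mesenchyme its regional identity were mixed. Of 37 measured, 9 were higher in UGM than in each other tissue (3.73% of all genes) and none was lower, while 20 were higher than the mean of the 3 tissues (9.61% of all genes were). Tcf21, a bHLH factor of visceral mesenchyme, stood at 12.83, 12.88, 12.86, 12.82 and 12.99 in UGM. It was at 9.40, 9.84 and 9.92 in UGE replicates 1, 2 and 3, at 5.41 to 5.50 in the other UGE samples, and at most at 4.78 in skin. UGM stood above even the high UGE samples (5.29 ± 0.74, adjusted p = 3.65e-05). Without those 3 UGE samples the difference was 7.42. Eya1, a coactivator needed for kidney and genital tract development, stood at 10.40, 10.06, 10.12, 10.25 and 9.85 in UGM and at most at 5.70 elsewhere, with no high UGE sample (4.67 ± 0.12, adjusted p = 7.74e-15). Six2, a homeobox partner of Eya proteins, differed by 1.50 ± 0.10.

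Gata5, a zinc finger factor of lateral mesoderm organs, stood at 8.61, 7.94, 9.37, 9.07 and 9.25 in UGM and did not exceed 6.31 elsewhere (3.58 ± 0.27, adjusted p = 1.09e-08). Its relatives Gata6 (0.24 ± 0.21, adjusted p = 0.675) and Gata4 (-0.19 ± 0.11, pairwise adjusted p = 0.178) were not called. Wt1, a factor of coelomic and genital ridge mesenchyme, stood at 10.31, 10.30, 9.25, 8.98 and 9.31 in UGM, higher in replicates 1 and 2 than in the rest. UGE replicates 2 and 3 reached 7.57 and 7.93, and no sample outside UGM was as high as the lowest UGM sample (3.41 ± 0.44, adjusted p = 1.29e-05). Foxf2, a forkhead factor of gut and urogenital mesenchyme and a hedgehog target, differed by 3.43 ± 0.18. The T-box repressor Tbx2 differed by 2.96 ± 0.41, the nuclear receptor Nr2f1 by 2.74 ± 0.20 and Pitx1, a hindlimb factor, by 1.25 ± 0.17.

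Factors of trunk skin mesenchyme stood out in dermis instead. Zic1 read 3.47 to 3.78 in UGM and 9.76 to 10.60 in dermis, Shox2 5.27 to 5.67 and 10.60 to 11.40, and Tbx15 5.30 to 5.61 and 9.11 to 9.99. In UGM these 3 genes lay at the level of UGE, where they differed by 0.02 ± 0.21, 0.12 ± 0.18 and 0.23 ± 0.14. Tbx3 was highest in UGE, above UGM (-0.91 ± 0.16), and Osr1 (-0.23 ± 0.24, pairwise adjusted p = 0.49) and Meis2 (0.07 ± 0.15, adjusted p = 0.96) did not differ between UGM and UGE beyond error.

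Posterior Hox genes, which encode position along the body axis, were mostly shared with UGE, the next highest tissue for 10 of the 14. Of these, 2 were higher in UGM than in each other tissue, beside 3.73% of all genes. Hoxc10 stood at 9.75, 9.57, 9.60, 9.73 and 9.91 in UGM, 6.68, 7.02, 7.21 and 6.99 in dermis and at most 5.51 in UGE. Every UGM sample was above every dermis sample (2.74 ± 0.28, adjusted p = 6e-07). Hoxd10 had UGE as its next tissue (1.41 ± 0.19, adjusted p = 2.1e-05). Hoxd13, the most posterior gene of its cluster, exceeded UGE by 0.68 ± 0.12 and epidermis by 7.18 ± 0.13. Hoxa10 and Hoxa11 differed from UGE by 0.19 ± 0.14 (pairwise adjusted p = 0.317) and 0.39 ± 0.12 (adjusted p = 0.0404). Hoxa9 was lower than in UGE (-1.36 ± 0.21), as was Hoxb13, the prostate epithelial member (-4.94 ± 0.19).

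In the list of secreted signals, their antagonists and further FGF family members, 14 of 55 measured genes were called higher and 1 lower. These stood beside 3.73% and 2.11% of all genes, and dermis was the next highest tissue for 43 of the 55. Bmp4, a ligand that restrains prostate budding, stood at 12.29, 12.23, 12.72, 12.64 and 12.49 in UGM, 9.13, 9.62, 9.78 and 9.09 in dermis and 8.01 to 9.93 in UGE. No other sample reached the lowest UGM value, and the mean was 8.37-fold over dermis (3.06 ± 0.31, adjusted p = 6.02e-07). Bmp5 differed by 1.95 ± 0.24. Of the TGF-beta family, Inhba, a subunit of activin, differed by 2.16 ± 0.23, Tgfb2 by 2.08 ± 0.14 and Tgfb3 by 1.28 ± 0.22. Tgfb2 was called in all 4 of its probe sets. Gdf10, a related ligand, stood at 11.76 to 12.28 in UGM and at most at 9.57 elsewhere, without overlap. It was not called (2.66 ± 0.75, adjusted p = 0.0226), with UGE at 4.79 to 9.01, and was called at the same difference without UGE replicate 2 or 3.

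Among Wnt pathway genes, 3 secreted antagonists and 2 ligands were called higher. Sfrp1, which binds Wnt proteins outside the cell and is made by prostate mesenchyme, stood at 11.74, 11.81, 11.21, 11.46 and 11.34 in UGM and at 8.94 to 9.77 in dermis (2.07 ± 0.20, adjusted p = 3.47e-07). Sfrp2 (1.38 ± 0.24) and Frzb (1.35 ± 0.21) were higher as well. Of the ligands, Wnt5b was higher by 1.81 ± 0.26 over UGE and Wnt2 by 1.34 ± 0.29 over dermis, a call lost without UGM replicate 3 (1.26) or dermis replicate 1 (1.25) or 3 (1.24). Wnt5a (0.99 ± 0.33, adjusted p = 0.0547) and the Wnt enhancer Rspo3 (1.46 ± 0.38, adjusted p = 0.0123) were not called, Rspo3 again being called without UGE replicate 2, 3 or 4. Wnt4, an epithelial ligand, was the gene called lower, at 8.28 to 9.08 in UGM and 12.92 to 13.22 in UGE, and below dermis (-2.18 ± 0.17, adjusted p = 1.23e-08).

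Other called genes of the list included ligands that act on growth, vessels and axons. Angpt1, a vessel-stabilising ligand, differed by 2.40 ± 0.17 and Slit2, an axon repellent, by 1.44 ± 0.23. Igf1, a growth factor that prostate growth needs, stood at 13.21, 13.01, 12.85, 12.99 and 12.32 in UGM and 10.96, 11.43, 11.80 and 11.73 in dermis. The UGM samples were all higher (1.40 ± 0.32, adjusted p = 0.00432), but the call was lost without any of 5 single samples (1.23 without dermis replicate 1). Fgf13, in the list as a member of the FGF gene family and not as a shown secreted ligand, differed by 1.07 ± 0.21. It fell just under 2-fold without UGM replicate 1 (0.97) or dermis replicate 1 (0.98). The budding ligand Fgf7 showed no gain (-1.52 ± 0.24). Fgf10, a further budding ligand, was not called (-0.26 ± 0.12, pairwise adjusted p = 0.0942), at 4.81 to 5.09 in UGM and 5.09 to 5.36 in dermis. These levels lay under the median array level of 6.29 and were not shown to exceed background. This probe set therefore cannot show whether Fgf10 differed. Dkk1 and Wif1, Wnt antagonists of the dermis, were lower in UGM than in dermis (-2.87 ± 0.17 and -4.01 ± 0.32).

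**Figure D3:**
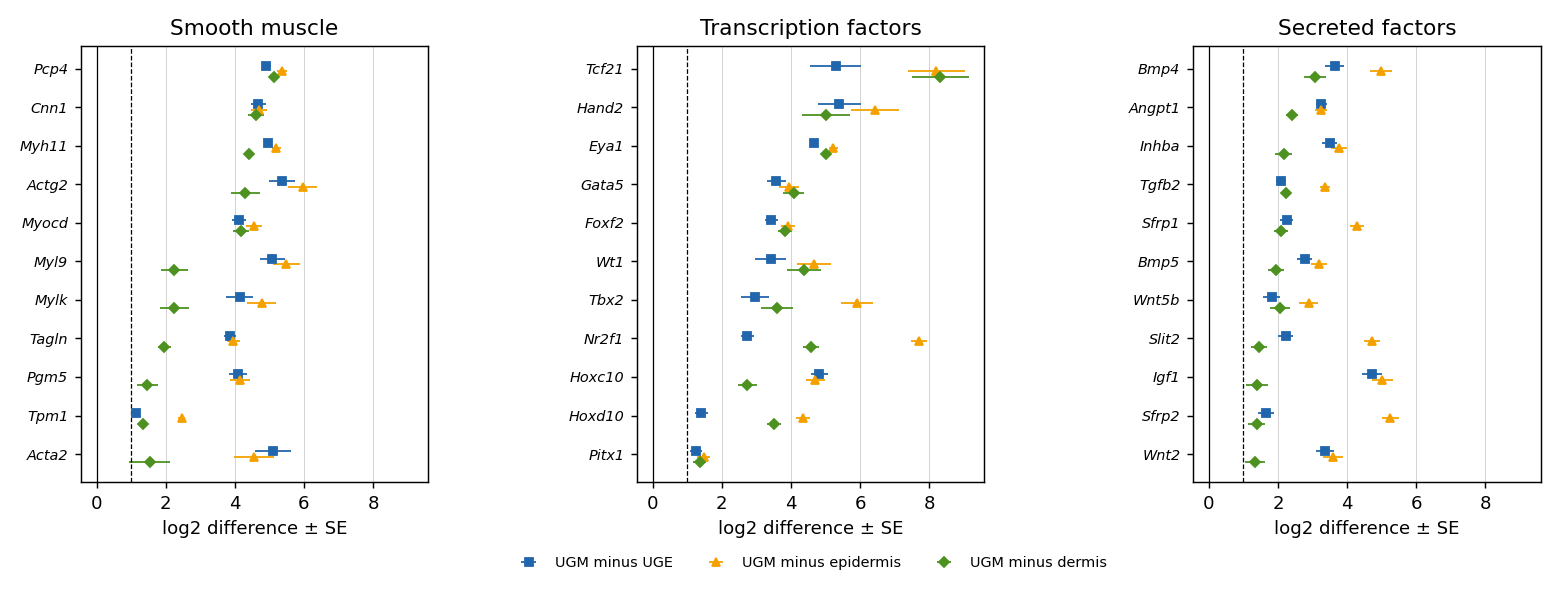
Log2 difference ± SE of UGM (n = 5) from UGE (n = 6), epidermis (n = 4) and dermis (n = 4) for smooth muscle genes, transcription factors and secreted factors, with the dashed line at 2-fold. For Cnn1 and Eya1 the 3 differences lie close together, whereas for Igf1 and Tagln the difference from dermis (1.40 ± 0.32 and 1.96 ± 0.20) is far smaller than that from UGE (4.72 ± 0.29 and 3.85 ± 0.18).

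Mesenchyme receives Sonic hedgehog from the epithelium and answers through Gli factors. Of 11 measured genes of this response, 2 were higher in UGM than in each other tissue, Foxf2 and Hhip, beside 3.73% of all genes. Hhip, a membrane protein that binds and limits hedgehog, stood at 9.12, 8.88, 9.57, 9.50 and 9.04 in UGM, 7.01, 7.18, 7.55 and 6.70 in dermis and at most 5.96 in the epithelia. All UGM samples lay above all dermis samples, and these above all epithelial samples (2.11 ± 0.19, adjusted p = 1.44e-07), and 3 of its 4 probe sets were called. The general targets Ptch1 and Gli1 were higher than in UGE by 1.42 ± 0.12 and 2.71 ± 0.22, but over dermis the differences were 0.62 ± 0.14 and 0.28 ± 0.24. Shh itself was highest in UGE, at 13.19 to 13.71, and stood at 7.72 to 9.80 in UGM, where replicate 2 was the highest. The UGM mean lay 0.27 above the lowest other tissue.

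Of 15 measured receptors for steroids and peptide hormones none was higher in UGM than in each other tissue, beside 3.73% of all genes, which is under 1 gene in a list of this size. Esr1, the estrogen receptor of urogenital stroma, stood at 9.85, 9.35, 9.91, 9.83 and 9.77 in UGM and at most at 9.37 in UGE (0.73 ± 0.14, adjusted p = 0.000967, under 2-fold) and was far above the skin. Greb1, an estrogen response gene, stood at 8.11 to 8.43 in UGM and was not called (1.60 ± 0.46, adjusted p = 0.0252). Without UGE replicate 2, which read 8.30, it was called at 1.92, and without replicate 3 at 1.95. Nr3c1, the glucocorticoid receptor, was lower than in each other tissue (-1.19 ± 0.27 against UGE, the lowest, adjusted p = 0.00497), a call lost without any of 13 single samples (-1.06 without UGE replicate 6). The androgen receptor was not analysed here.

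Structural matrix genes stood about as high in dermis as in UGM. Of 36 measured, 3 were higher than in each other tissue (Col25a1, Col23a1 and Hapln1), beside 3.73% of all genes, 20 were higher than the mean of the 3 tissues, and dermis was the next tissue for 34. The list median stood at 10.84 to 11.23 in UGM and 10.74 to 11.18 in dermis. Col25a1, a transmembrane collagen made by neurons, stood at 10.79, 10.63, 10.72, 10.80 and 10.41 in UGM and at most at 7.65 elsewhere (3.48 ± 0.22, adjusted p = 5.73e-10). Col23a1, a further transmembrane collagen, differed by 1.54 ± 0.36, a call lost without any of 7 single samples (1.38 without dermis replicate 1). The fibrillar collagen genes Col1a2 (-0.43 ± 0.92, pairwise adjusted p = 0.748) and Col3a1 (-0.26 ± 0.62, pairwise adjusted p = 0.773) were no higher than in dermis. The dermal matrix genes Postn (-2.26 ± 0.26), which encodes periostin, Lum (-2.34 ± 0.23), lumican, and Aspn (-4.12 ± 0.19), asporin, were lower than in dermis.

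Markers of other cell types that a dissected mesenchyme can hold were not called higher in UGM. None of 17 endothelial genes, 14 macrophage genes, 8 erythroid genes, 18 skeletal muscle genes or 7 melanocyte genes passed, and none was called lower, beside shares of 3.73% and 2.11% over all genes, which are under 1 gene in each list. Against the mean of the 3 other tissues 11 of the 17 endothelial genes were higher (9.61% of all genes), while 8 of the 18 skeletal muscle genes and 4 of the 7 melanocyte genes were lower (6.19% of all genes). Pecam1, an endothelial adhesion protein, read 5.36 to 6.01 in UGM and 6.12 to 6.74 in dermis, and Kdr, the VEGF receptor, 8.82 to 9.60 and 9.81 to 10.44. Skeletal muscle genes had a list median of 5.87 to 6.86 in UGM, 5.38 to 5.91 in UGE and 8.05 to 9.85 in dermis. Myog, the myogenic factor, read highest in UGM replicates 5 (7.58) and 2 (7.14) and 9.97 to 10.49 in dermis. Of 9 genes of the mesonephric and Müllerian ducts, whose ends join the sinus, none was called. Amhr2, the receptor for the Müllerian inhibitor, stood at 7.09 to 7.69 in UGM against 8.24 and 8.10 in UGE replicates 2 and 3 and at most 5.57 in the other UGE samples (1.16 ± 0.47, pairwise adjusted p = 0.0611).

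**Figure D4:**
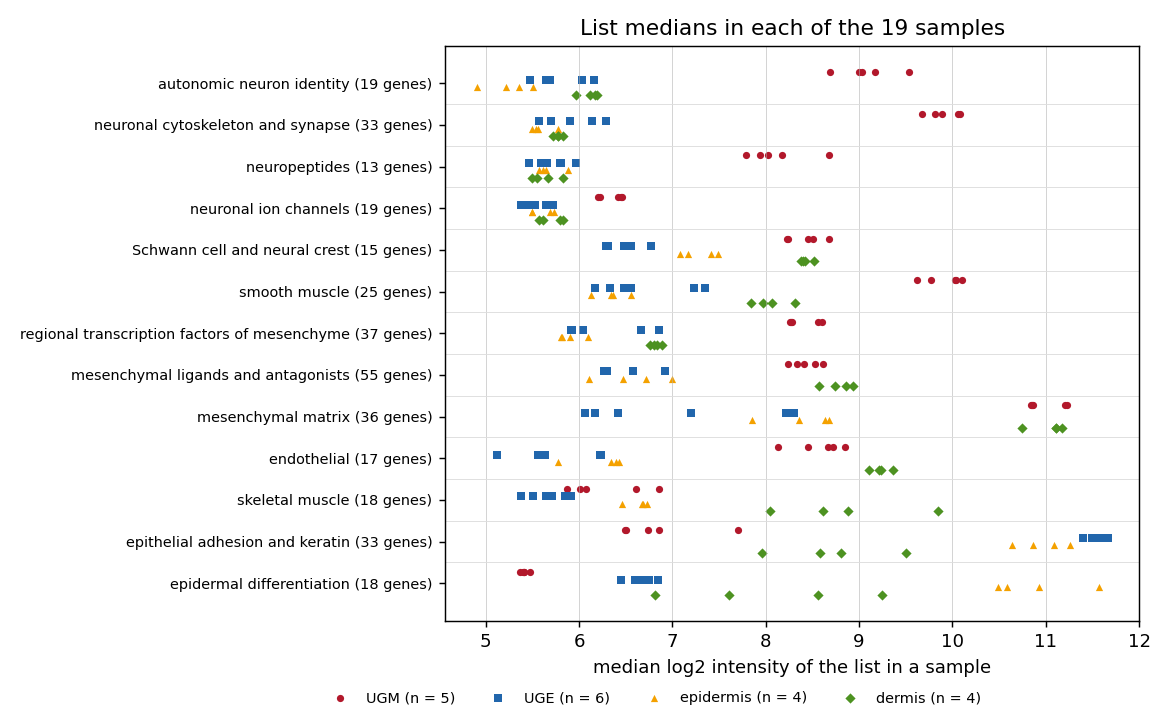
Median log2 intensity over the measured genes of each list in each of the 19 samples, with 1 point per sample and colours for the 4 tissues. UGM samples lie apart on the right for the neuronal lists and smooth muscle (9.62 to 10.10 against at most 8.31), beside dermis for Schwann cell and matrix genes, and on the left for epithelial genes, where replicate 2 is the highest UGM sample.

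Many of the largest differences fell on genes outside the lists, and those named here were chosen after their values were seen. Plcxd3, a phospholipase-like gene, stood at 10.99, 10.80, 11.12, 11.20 and 10.40 in UGM and at most at 5.93 elsewhere (5.89 ± 0.26, adjusted p = 8.31e-12). Gdap1, a mitochondrial protein of neurons (4.95 ± 0.15), Rtn1, a reticulon of neuroendocrine cells (4.94 ± 0.29), Fam155a, a sodium leak channel subunit (4.64 ± 0.29), and Tnr, a matrix protein of the nervous system (4.61 ± 0.13), were all among the first 20. Kif5c, a kinesin of axonal transport, differed by 4.21 ± 0.27, Grin3a, a glutamate receptor subunit, by 4.32 ± 0.32, Htr3a, the ionotropic serotonin receptor, by 3.48 and Ache, acetylcholinesterase, by 3.01. Transcription factors outside the list of regional factors included Tbx20 (4.42 ± 0.09), Sall1 (4.09 ± 0.43) and Mkx, a tendon homeobox factor (3.75 ± 0.17). Tbx20 stood at 8.29, 7.89, 7.88, 8.15 and 8.11 in UGM and at most at 3.81 in any other sample. In 151 of the 352 called genes with more than 1 tested probe set a further probe set was called, and none was called in the opposite direction.

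The 367 genes lower in UGM than in each other tissue were mostly genes that dermis also held at the lowest other level, 254 of the 367, followed by UGE (103) and epidermis (10). Their median difference under the lowest other tissue was -1.76, 58 passed 8-fold and 26 passed 16-fold. All 5 UGM samples lay below all others for 351 of them, beside 887 of all genes (5.11%) that showed this order. Of the 367 genes, 27 were in the epithelial lists and 336 in none of the lists. The dermis samples held keratin transcripts at a high level, as given above. Leaving out dermis raised the probe set count from 554 to 1164, and leaving out epidermis gave 585. A rule over fewer tissues is looser, so these rises cannot show the part of keratin transcripts. The part of those transcripts in the list was not tested.

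Of 33 epithelial adhesion and keratin genes 21 were lower in UGM than in each other tissue, beside 2.11% of all genes, with a median of -2.28 under the lowest other tissue against 0.15 over all genes. Perp, a desmosome protein, had the largest loss. It stood at 7.01, 8.12, 6.08, 6.57 and 6.74 in UGM and 13.23, 12.04, 12.93 and 12.99 in dermis, the lowest other tissue. Every UGM sample was below every other sample, and the mean lay 59.3-fold under dermis (-5.89 ± 0.30, adjusted p = 4.08e-11). Trp63, the factor that sets up stratified epithelium, stood at 4.52 to 6.71 in UGM and did not fall below 10.62 elsewhere (-5.57 ± 0.35, adjusted p = 6.38e-10).

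Basal keratins behaved alike. Krt5 stood at 7.11, 8.78, 6.62, 6.92 and 7.05 in UGM and ran from 12.59 to 13.40 with a median of 12.89 in UGE, its lowest other tissue. UGM replicate 2 was the highest of its group and still far below the lowest UGE sample (-5.60 ± 0.28, adjusted p = 4.03e-11). Krt14, its partner, differed by -5.49 ± 0.19 and Krt15 by -4.98 ± 0.47, again with the highest UGM value in replicate 2 (9.85 against at most 7.10). The stress keratin Krt6a differed by -4.78 ± 0.33. Genes of cell attachment followed, with desmoplakin Dsp at -5.08 ± 0.28 and Col17a1, the collagen of hemidesmosomes, at -5.19 ± 0.18. Cdh1, E-cadherin, stood at 7.23, 8.32, 6.64, 6.53 and 7.70 in UGM and 11.78, 10.07, 11.07 and 10.78 in dermis (-3.65 ± 0.31, adjusted p = 5.86e-08). The splicing regulators of epithelium, Esrp1 and Esrp2, differed by -4.11 ± 0.32 and -3.69 ± 0.29. Asprv1, a protease of the epidermis (-4.79 ± 0.28), and Irx2, a homeobox factor (-4.75 ± 0.18), completed the first 10.

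**Figure D5:**
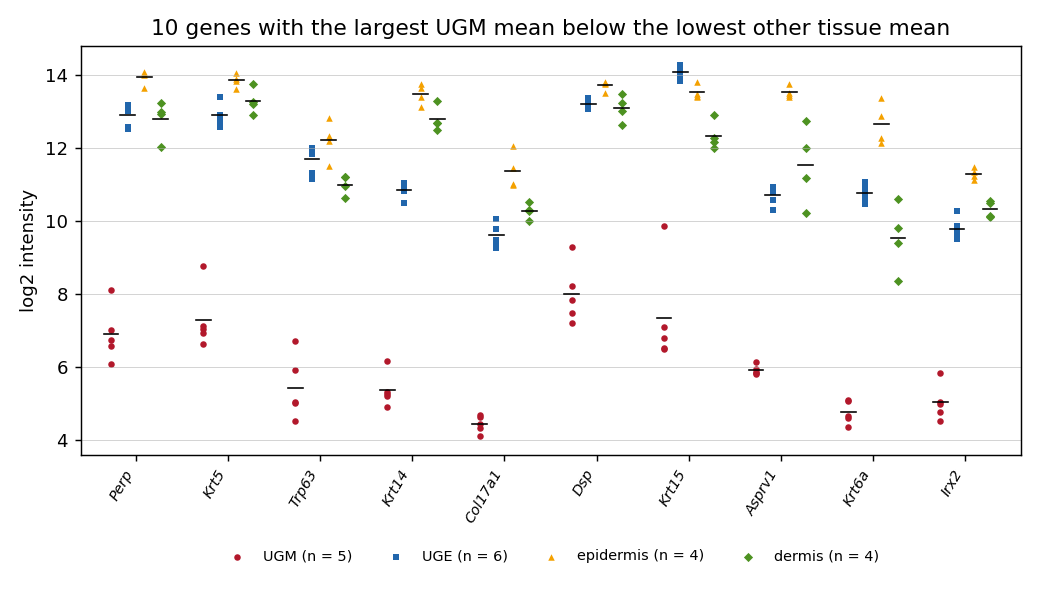
Log2 intensity of the 10 genes with the largest UGM deficit under the lowest other tissue, with 1 point per sample and a bar for each tissue mean (5 UGM, 6 UGE, 4 epidermis and 4 dermis samples). All UGM samples lie below all others for each gene, which was a condition for choosing these genes. UGM replicate 2 is the highest of its group for Krt5 (8.78) and Krt15 (9.85).

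Krt8 and Epcam, genes of simple epithelium, were not lower than in each other tissue. Krt8 stood at 8.98 to 10.65 in UGM, 7.91 to 9.21 in dermis and 13.77 to 14.07 in UGE, and Epcam at 6.03 to 8.09, 7.36 to 7.98 and 11.24 to 11.88. Epidermal differentiation genes were lower in UGM than in each other tissue in 6 of 18 cases (2.11% of all genes), among them Krt1 (-2.88 ± 0.28), Lor, which encodes loricrin (-2.64 ± 0.22), and Tgm1, a crosslinking enzyme (-2.73 ± 0.28). Sprr1a, a cornified envelope protein, was called at -1.41 ± 0.33 (adjusted p = 0.00522) and lost the call without any of 5 single samples (-1.08 without dermis replicate 1). None of 14 genes of urogenital epithelium was lower than in each other tissue, and UGE was the highest other tissue for 13 of them. Foxa1, a forkhead factor of endodermal epithelium, read 6.69 to 8.64 in UGM, 12.97 to 13.35 in UGE and 5.38 to 5.79 in dermis.

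Among the lower genes, 13 had a higher mean in dermis than in epidermis. Pparg, the nuclear receptor of fat and urothelial cells, stood at 5.12, 5.61, 5.13, 5.30 and 5.20 in UGM, 8.87, 8.90, 8.69 and 8.79 in dermis and 7.97 to 9.20 in UGE. No other sample came near the UGM range, and the mean lay 7.07-fold under epidermis, the lowest other tissue (-2.82 ± 0.20, adjusted p = 3.87e-09). Cebpa, its partner in fat cells, differed by -2.48 ± 0.18. These were 2 of 5 measured fat cell genes, beside 2.11% of all genes called lower, and the other 3 were not called. Of those, Lpl and Fabp4 lay above the lowest other tissue by 2.54 and 0.80, and under the highest (-2.19 and -4.79). Nothing is read about fat cells from this count. The fat cell transcript Adipoq was near the floor in all tissues except 1 epidermis sample (9.63). Col7a1, the anchoring fibril collagen of basement membranes, differed by -2.14 ± 0.17 and Runx1, a factor of blood and hair follicle cells, by -1.13 ± 0.22. Both were named after their values were seen.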

How the data were processed

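Total RNA was labelled in a 2-cycle protocol and hybridised to MOE430 2.0 arrays. The deposited values were linear intensities, 1 per probe set and sample, already normalized by the authors. GCOS 1.4 was named in the submitters' processing notes, and PLIER and MAS5 detection calls in the study's methods, but which program made this table was not given in the sources used here. The array held 45101 probe sets, of which 64 control sets were dropped. The 41549 that exceeded 20 in at least 1 of 19 samples were tested after a log2 transform of the deposited intensities. In limma 3.58.1 (R 4.3.3), 1 model of 4 tissues gave UGM minus each other tissue, weighted equally. The largest of the 3 p-values was adjusted by Benjamini-Hochberg over all probe sets. A gene was read from its brightest tested probe set with 1 symbol (17360 genes, of 34945 probe sets with 1 symbol, 932 with several and 9160 with none). Named genes were the 20 highest and 10 lowest, up to 6 called members per list and direction, and list members with a described role. The 20 and the 10 were ranked among called genes whose UGM samples all lay above, or all below, every other sample, so that order was fixed by the choice. Members and the 22 lists were chosen with earlier results of these data known. Alternatives changed the normalization, filter, added constant, test, probe set, threshold and samples, including each replicate left out in turn. Steps were tested on simulated data. Replicate numbers did not consistently match samples of different tissues and were not used to pair them. Promoters came from RefSeq tables of GRCm38.p6. The number of arrays, 5 in UGM, limits the precision.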

Additional observations from a re-analysis of the deposited data

Results flagged for a closer look

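The check covered 204 items, which were 182 named genes and the medians of the 22 gene lists. For 14 of them a UGM value stood apart from the other 4 samples of the group by Dixon's criterion, 6.9% of those checked. Chance gives about 1 in 20. The shares were 2.9% in UGE, 6.4% in epidermis and 2.5% in dermis. UGM replicate 2 held 6 of the 14 and replicate 5 held 5.

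In replicate 2 the keratins were high. Krt5 read 8.78 there and 6.62 to 7.11 in the others, Krt15 9.85 against 6.50 to 7.10, and Krt4 8.84 against 6.15 to 6.65. In the same sample some single genes were lower, with Nr2f1 at 11.93 against 12.46 to 12.67, Esr1 at 9.35 against 9.77 to 9.91, and Kif5c at 12.27 against 12.76 to 12.83. Mesenchymal transcripts were not lower there as a set. The matrix median was 11.205 in a UGM range of 10.838 to 11.233, and the ligand median of 8.619 was the highest of UGM. The neuronal cytoskeleton median of 9.68 was the lowest of UGM, but the autonomic median was not (9.03 in a range of 8.69 to 9.54). The median over the epithelial adhesion and keratin list was also highest in replicate 2, and its part in these values was not tested.

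In replicate 5 autonomic genes were high. Phox2a read 10.33 against 9.38 to 9.61, Insm1 8.12 against 7.39 to 7.59, and Dbh 10.81 against 10.37 to 10.43. Angpt1 was low there at 7.23 against 8.03 to 8.33, as was Nr3c1 at 8.43 against 8.73 to 8.80. The muscle factor Myog was also highest in replicate 5.

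Of the remaining values, Hapln1 read 7.04 in replicate 1 against 6.25 to 6.45 elsewhere in UGM and Dcn 14.06 against 13.82 to 13.88. Rspo3 read 11.06 in replicate 3 against 11.20 to 11.23.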

How the results depend on the processing

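The count of probe sets higher in UGM than in each other tissue was 1230, and 1139 to 1240 with 1 sample left out at a time. It was 808 with 50 added to each value before the log2, 699 with a median of at least 50 required, 651 with 1 probe set per gene, 503 with a test against the 2-fold bound and 2478 without dermis. The count lower was 554, and 481 to 597 with 1 sample left out. It was 328 by the methods' t-test, 191 against the 2-fold bound and 1164 without dermis. Against the mean of the 3 tissues 3011 were higher (2901 to 3054 with 1 sample left out) and 1905 lower (1830 to 1952). These became 1991 and 1269 with 50 added, 1426 and 879 against the 2-fold bound, and 1672 and 1075 with 1 probe set per gene. With 1 sample left out, 12 to 13 autonomic, 26 to 28 cytoskeletal, 5 to 6 ion channel, 9 to 10 regional factor and 11 to 16 ligand genes were called higher, and 20 to 22 epithelial and 5 to 6 epidermal genes lower, while the neuropeptide (8) and smooth muscle (10) counts did not change. Without UGE replicates 2 and 3 the counts were 12 for smooth muscle, 10 for regional factors and 16 for ligands. The methods' t-test called 5 neuropeptide genes. Reading the probe set with the largest spread gave 11 ion channel genes, without a share over all genes for that choice.

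Same-numbered samples did not consistently deviate together. Correlations ran from -0.41 to 0.65 between UGM and UGE, -0.51 to 0.28 with epidermis and -0.37 to 0.14 with dermis. The same number was the best match for UGM replicate 1 in UGE (0.65), replicate 3 in epidermis (0.28) and replicate 4 in dermis (0.14), and for no other. The numbers were therefore not taken to pair samples. With the replicate number as a block, 1186 probe sets were higher and 515 lower, and 3004 and 1874 against the mean.

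Of 129 named genes that were called, 102 were called in each of 30 settings and 27 lost the call in some. Of 53 not called, 16 were called in some setting. No called gene changed direction, but 4 genes that were not called changed sign between settings, Tpm2 (-0.84 to 1.17), Meis1 (-0.44 to 0.88), Slc18a2 (-0.35 to 0.04) and Synpo2 (-0.015 to 0.46). The causes were not tested. Detection calls were not used, so how far low levels stood above background is unknown.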
